A study of Mus musculus with 123 samples.

Results

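The genes described here are the interferon-stimulated antiviral and GTPase genes of the mouse lung: 41 genes were listed by symbol, and 33 of them were measured by a probe set that names that gene alone. The other 8 (Ifit3, Oas1a, Gbp5, Gbp9, Tgtp1, Ifi47, Isg15 and Ifi44) were not analysed here. The rule goes by gene symbol and uses no measured difference, but the members were chosen with earlier results of these data known. Each gene was read from its probe set with the highest mean. The measured genes fall into 6 type I-like genes (Ifit, Oas and Mx families), 8 gamma-like GTPases (Gbp and Irg families), 9 antiviral effectors, 4 transcription factors, 3 RNA sensors and 3 genes of the Parp9, Parp14 and Dtx3l group, out of 13053 genes on the array with a single-gene probe set.

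The series followed whole lungs of 62 OVA-sensitized and 61 naive BALB/c mice, 1 Affymetrix array per mouse, at 0, 2, 6, 24, 48, 72, 96 and 168 h after challenge with OVA (ovalbumin, the allergen of this asthma model). Sensitized groups held 8 mice, or 6 at 24 h, and naive groups held 8 mice, or 7 at 2, 48 and 96 h. By the design text naive mice also received OVA, whereas the titles of the naive samples carry PBS, so what the naive mice received is not settled by the labels, nor is whether the 0 h mice were killed before any challenge. The labels do not state the animals' age or sex, nor how they were sensitized.

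Interferons are secreted proteins that make cells switch on a shared set of defence genes. Type I interferons act through a complex that holds Stat2 and Irf9 and binds a DNA element called the interferon-stimulated response element (ISRE), while gamma interferon, made mainly by T cells and NK cells, acts through another element, the gamma-activated site (GAS). Many genes answer both, but Ifit, Oas and Mx genes are classically read as type I targets and the Gbp and Irg GTPases as gamma targets. The labels type I-like and gamma-like below are families, not a reading of which interferon acted.

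The promoters of a few members show these elements in the letters of the genome. RefSeq windows of 300 bases around the gene start (GRCm38.p6, a C57BL/6J reference, not the BALB/c genome of these mice) were found for 24 of the 33 measured members, some with several windows, 29 in all. The core of the ISRE was searched as GAAANNGAA and the GAS as TTCNNNGAA, on both strands. An ISRE core lay in 48.3% of the member windows, against 8.56% of all 32851 promoter windows, and a GAS in 27.6%, against 8.3%. All 6 gamma-like members with a window held an ISRE core, and 3 of them (Gbp7, Igtp and Irgm2) also held a GAS, while 1 of the 4 type I-like members with a window, Ifit1, held an ISRE core. A match describes letters and not a bound factor. A missing match in a window of 300 bases does not show that a gene lacks the element, and the families hold few genes. The lines below give the bases just before the start of 6 members, 5′ to 3′ on the gene's strand, with both kinds of motif in capitals. Irgm2 and Igtp are shown because they carry a GAS beside an ISRE core, Gbp2 for an ISRE core alone, Irf1 for a GAS alone, Ifit1 for 3 ISRE cores, and Rsad2 as a member that was high at 6 h and low at 96 h.
Irgm2: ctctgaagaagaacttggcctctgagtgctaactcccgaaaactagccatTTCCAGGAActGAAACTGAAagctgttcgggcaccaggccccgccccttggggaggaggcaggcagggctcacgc
Igtp: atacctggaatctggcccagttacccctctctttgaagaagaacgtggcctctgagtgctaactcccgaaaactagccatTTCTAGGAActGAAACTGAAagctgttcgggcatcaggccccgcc
Gbp2: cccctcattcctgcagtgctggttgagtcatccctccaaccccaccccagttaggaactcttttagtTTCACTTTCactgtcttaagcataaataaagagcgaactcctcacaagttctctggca
Irf1: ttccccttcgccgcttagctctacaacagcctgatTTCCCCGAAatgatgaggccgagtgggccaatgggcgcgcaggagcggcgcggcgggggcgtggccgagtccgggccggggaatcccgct
Ifit1: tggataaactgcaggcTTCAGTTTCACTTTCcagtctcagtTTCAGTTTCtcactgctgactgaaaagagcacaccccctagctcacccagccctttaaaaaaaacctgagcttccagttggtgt
Rsad2: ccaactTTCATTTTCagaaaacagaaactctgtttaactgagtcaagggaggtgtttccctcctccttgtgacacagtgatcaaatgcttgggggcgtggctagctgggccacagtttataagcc
The windows lie at chr11:58214852-58214976 (+) for Irgm2, chr11:58199431-58199555 (+) for Igtp, chr3:142620538-142620662 (+) for Gbp2, chr11:53769889-53770013 (+) for Irf1, chr19:34640764-34640888 (+) for Ifit1 and chr12:26456453-26456577 (-) for Rsad2. In Irgm2 the GAS spans bases -75 to -67 and the ISRE core bases -64 to -56, counted back from the start. In Igtp the same order recurs closer to the start, with the GAS at -45 to -37 and the ISRE core at -34 to -26. In Ifit1 the first and second ISRE cores overlap, at -109 to -101 and -103 to -95, and the third spans -84 to -76.

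All 33 measured members were higher in sensitized than in naive lungs at 6 h, and none was lower. Values are log2 intensities, differences are sensitized minus naive with their standard error (SE), and a member is called where limma's p, adjusted by Benjamini-Hochberg over all 13053 genes, was under 0.05. At that time 24.6% of all genes were called higher and 33.2% lower, and the median difference over members was 0.95, against -0.04 over all genes. In the other comparisons the members were called far less often. At 0 h 5 were higher and 0 lower, with 14.2% of all genes higher and 12.3% lower, a share near the background. At 2 h 1 was higher and 0 lower, with 1.84% of all genes higher and 1.92% lower. At 24 h 14 were higher and 1 lower, with 22.8% and 24.9% of all genes, so that the members' calls leaned to the higher side while those of all genes were nearly even, and array weights gave 22 higher. At 48 h 2 were higher and 2 lower, fewer than the 17% and 18.1% of all genes would give, and 4 were higher both with array weights and with the 48 h mice fitted alone. At 72 h 8 were higher and 2 lower, with 22.2% and 26.3% of all genes, so that the higher share is near the background in that fit, while fitting the 72 h mice alone gave 15 higher and array weights 13. At 96 h 1 was higher and 7 lower, with 21.2% and 20.8% of all genes. The lower share is thus near the background in that fit, while fitting the 96 h mice alone gave 11 lower. Shares of all genes are given for the main fit only. Counts from array weights or from 1 time fitted alone therefore cannot be set against a background. At 168 h none was called in either direction by limma, with 3.4% and 1.41% of all genes. An unadjusted limma p under 0.05 was found for 5 members (Ifi35, Ifit2, Ddx58, Mx1 and Ifit1). No share of all genes is given for that unadjusted threshold, so this count cannot be set against a background.

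**Figure D1:**
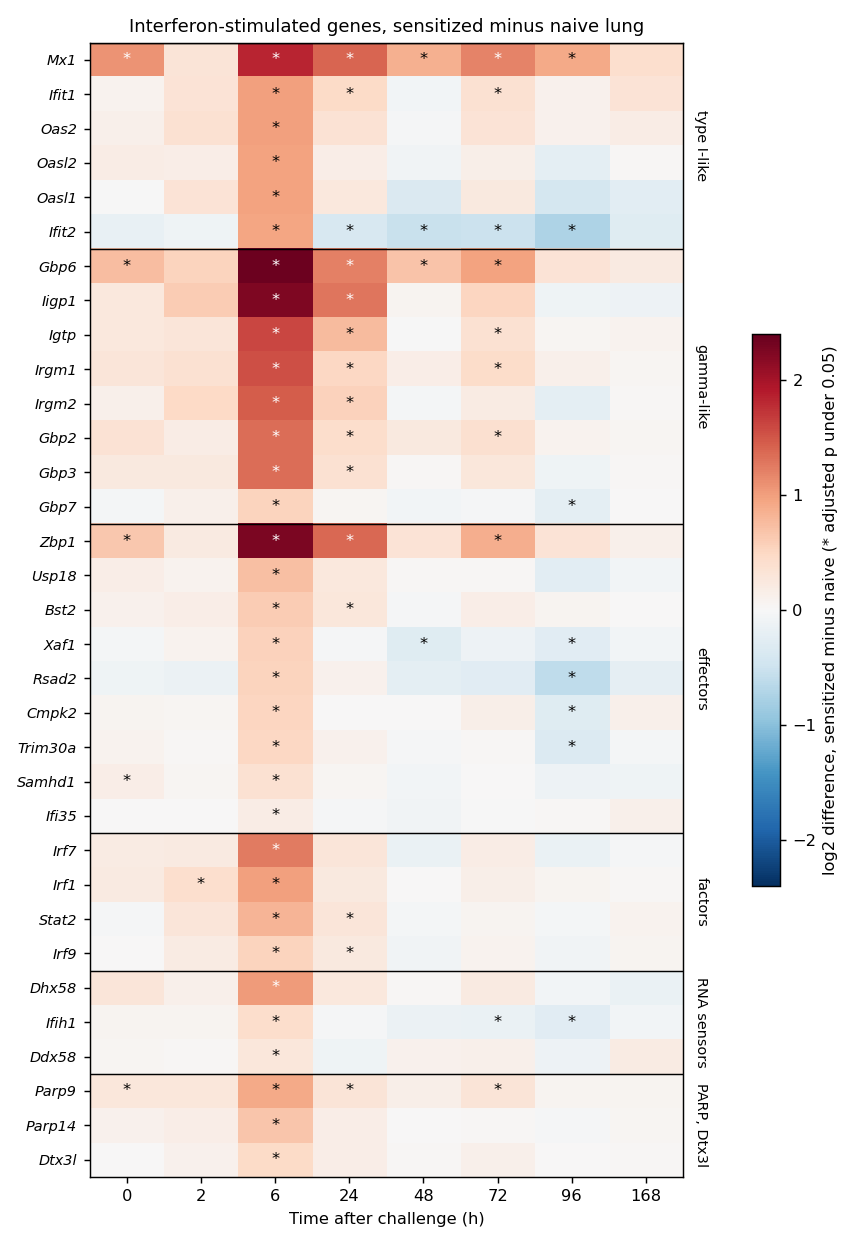
Log2 difference, sensitized minus naive lung, for the 33 measured members (rows, grouped by role) at the 8 times after challenge (columns, h); red is higher in sensitized lungs, blue lower, and an asterisk marks an adjusted p under 0.05. All 33 cells of the 6 h column carry an asterisk, and Ifit2 turns from 0.95 at 6 h to -0.73 at 96 h.

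The gamma-like GTPases, which gather on the vacuoles of intracellular microbes and open or mark them, had the largest median difference of the 6 roles at 6 h, 1.50 over 8 members. Gbp6, a guanylate-binding protein, read 10.61, 13.60 and 13.83 in sensitized lungs (lowest, median and highest of 8), against 10.35, 10.55 and 11.16 in naive lungs. Thus 7 of the 8 sensitized mice lay above every naive mouse, and 1 fell among them. The difference was 2.35 ± 0.23 (SE), with a limma adjusted p of 1.2e-15. Iigp1, an Irg GTPase that disrupts the parasite vacuole, read 9.96, 12.71 and 12.98 in sensitized lungs, against 9.65, 9.86 and 10.49 in naive lungs. The groups again overlapped through 1 sensitized mouse, and the difference was 2.24 ± 0.23. Igtp is a regulatory Irg GTPase that, like Irgm2 and Gbp7, has a GAS and an ISRE core in its promoter window. Igtp read 11.16, 13.16 and 13.50 in sensitized lungs, against 10.99, 11.19 and 11.38 in naive lungs. It differed by 1.61 ± 0.16 (limma adjusted p = 5.44e-15), with 7 of 8 sensitized mice above all naive ones. The other 5 ranged from 0.54 ± 0.08 for Gbp7 to 1.55 ± 0.14 for Irgm1, a regulator of autophagy. Irgm2 (1.45 ± 0.15), Gbp2 (1.35 ± 0.14) and Gbp3 (1.33 ± 0.14) lay between them.

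The type I-like genes rose too, with a median of 0.97 over 6 members, and apart from Mx1 their differences were nearly equal. Mx1, a dynamin-like GTPase that blocks influenza virus and that BALB/c mice carry as a defective allele, read 9.06, 10.47 and 11.41 in sensitized lungs, against 7.94, 8.29 and 9.31 in naive lungs. Of the 8 sensitized mice 7 exceeded every naive mouse. Its difference was 1.83 ± 0.20 (limma adjusted p = 2.23e-13). Ifit1, which binds viral RNA that lacks a host cap, read 10.22, 11.49 and 12.33 in sensitized lungs, against 9.92, 10.37 and 10.81 in naive lungs. The groups overlapped in 2 sensitized mice, and the difference was 0.98 ± 0.16 (limma adjusted p = 8.59e-08). Oas2, an oligoadenylate synthetase of the RNase L pathway, read 8.25, 9.86 and 10.57 in sensitized lungs, against 8.05, 8.40 and 9.82 in naive lungs. Here only 4 of the 8 sensitized mice lay above all naive ones, because naive mice 3 and 4 read 9.72 and 9.82. The difference was 0.98 ± 0.18 (limma adjusted p = 2.57e-06). The other 3, Oasl2 (0.97 ± 0.13), Oasl1 (0.96 ± 0.19) and Ifit2 (0.95 ± 0.11), were called as well.

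Among the 9 antiviral effectors the median difference at 6 h was 0.53, and Zbp1 stood far from the rest. Zbp1, a sensor of Z-form nucleic acid that can trigger cell death, read 8.83, 11.53 and 12.36 in sensitized lungs, against 8.23, 8.82 and 9.68 in naive lungs. Its difference of 2.25 ± 0.23 (limma adjusted p = 2.08e-14) was followed by that of Usp18, at 0.72 ± 0.11. Usp18, the protease that strips Isg15 from proteins and damps the type I receptor, read 10.83, 11.56 and 12.26 in sensitized lungs, against 10.52, 10.84 and 11.02 in naive lungs. In both genes most sensitized mice stood above the naive range, 7 of 8 for Zbp1 and 6 of 8 for Usp18. Bst2, the tetherin that holds budding virus at the membrane, differed by 0.62 ± 0.09. Rsad2 (viperin, an antiviral radical enzyme) differed by 0.53 ± 0.16, with only 3 of 8 sensitized mice above all naive ones. The smallest difference of any member, by the probe sets used, was that of Ifi35, 0.17 ± 0.04. There 7 sensitized mice lay above every naive mouse and 1 lay below them all.

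All 4 transcription factors were higher at 6 h, with a median of 0.90. Irf7, the factor that amplifies type I interferon production, read 9.65, 10.99 and 11.89 in sensitized lungs, against 9.28, 9.54 and 10.33 in naive lungs, with 6 of 8 above the naive range. The difference was 1.24 ± 0.16 (limma adjusted p = 3.98e-11). Irf1, an early gamma interferon target that carries the GAS shown above, read 11.98, 13.09 and 13.26 in sensitized lungs, against 11.71, 11.92 and 12.05 in naive lungs. It had a smaller difference than Irf7, 0.98 ± 0.09, but a narrower spread and a limma adjusted p of 7.99e-16. Stat2 and Irf9, partners in the complex that binds the ISRE, differed by 0.82 ± 0.10 and 0.53 ± 0.08. Of the 3 RNA sensors, Dhx58 (LGP2, a regulator of the other sensors) differed most. It read 8.69, 9.63 and 10.50 in sensitized lungs, against 8.16, 8.53 and 9.21 in naive lungs, a difference of 1.01 ± 0.13 (limma adjusted p = 2.87e-11). Ifih1 (MDA5, which detects long double-stranded RNA) read 11.07, 11.43 and 11.88 in sensitized lungs, against 10.84, 11.03 and 11.20 in naive lungs, a difference of 0.41 ± 0.06. In both sensors 6 of 8 sensitized mice exceeded all naive ones. By the probe sets used, Ddx58 (RIG-I) had the smallest difference of the role, 0.28 ± 0.08.

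The Parp9, Parp14 and Dtx3l genes, which encode ADP-ribosylation enzymes and a ubiquitin ligase that partners Parp9, had a median difference of 0.67. Parp9 read 11.07, 12.05 and 12.40 in sensitized lungs, against 10.89, 10.96 and 11.22 in naive lungs. Parp14 read 11.94, 12.82 and 13.03 in sensitized lungs, against 11.87, 11.98 and 12.12 in naive lungs. Both left 1 sensitized mouse inside the naive range, and they differed by 0.91 ± 0.09 and 0.67 ± 0.07, while Dtx3l differed by 0.46 ± 0.07.

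No member had all 8 sensitized mice above the naive mice at 6 h. In 15 members 7 of 8 did so, in 13 members 6 of 8, in 2 members 5 of 8 and in 3 members fewer. No share of all genes is given for this overlap, so how unusual these counts are was not tested. Sensitized mouse 3 had the lowest mean of the gamma-like members, 10.77, with 11.34 in mouse 2 and 12.58 to 12.98 in the other 6. Naive mice at 6 h ranged from 10.67 to 11.01. Mouse 3 was thus inside the naive range and mouse 2 above it but well under the remaining sensitized mice. Ifng, which encodes gamma interferon, followed the same order, at 6.13 in mouse 3, 6.77 in mouse 2 and 8.86 to 9.94 in the others. Mouse 3 also carried skeletal muscle transcripts (mean of 9 markers 9.08, against at most 6.82 in the other sensitized 6 h mice). Such transcripts were not confined to the sensitized arm. At 6 h the muscle gene Acta1 reached 13.97 in naive lungs, against 11.01 in sensitized lungs. The squamous epithelium gene Krt4 reached 14.03 in naive and 13.32 in sensitized lungs. Without mice 2 and 3, an alternative chosen after seeing the data, all 33 members were higher. The gamma-like median was then 1.92 and the type I-like median 1.33. These mice had the lowest gamma-like means of their group, so leaving them out raises the gamma-like differences by construction. That fit is therefore no check of the calls.

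**Figure D2:**
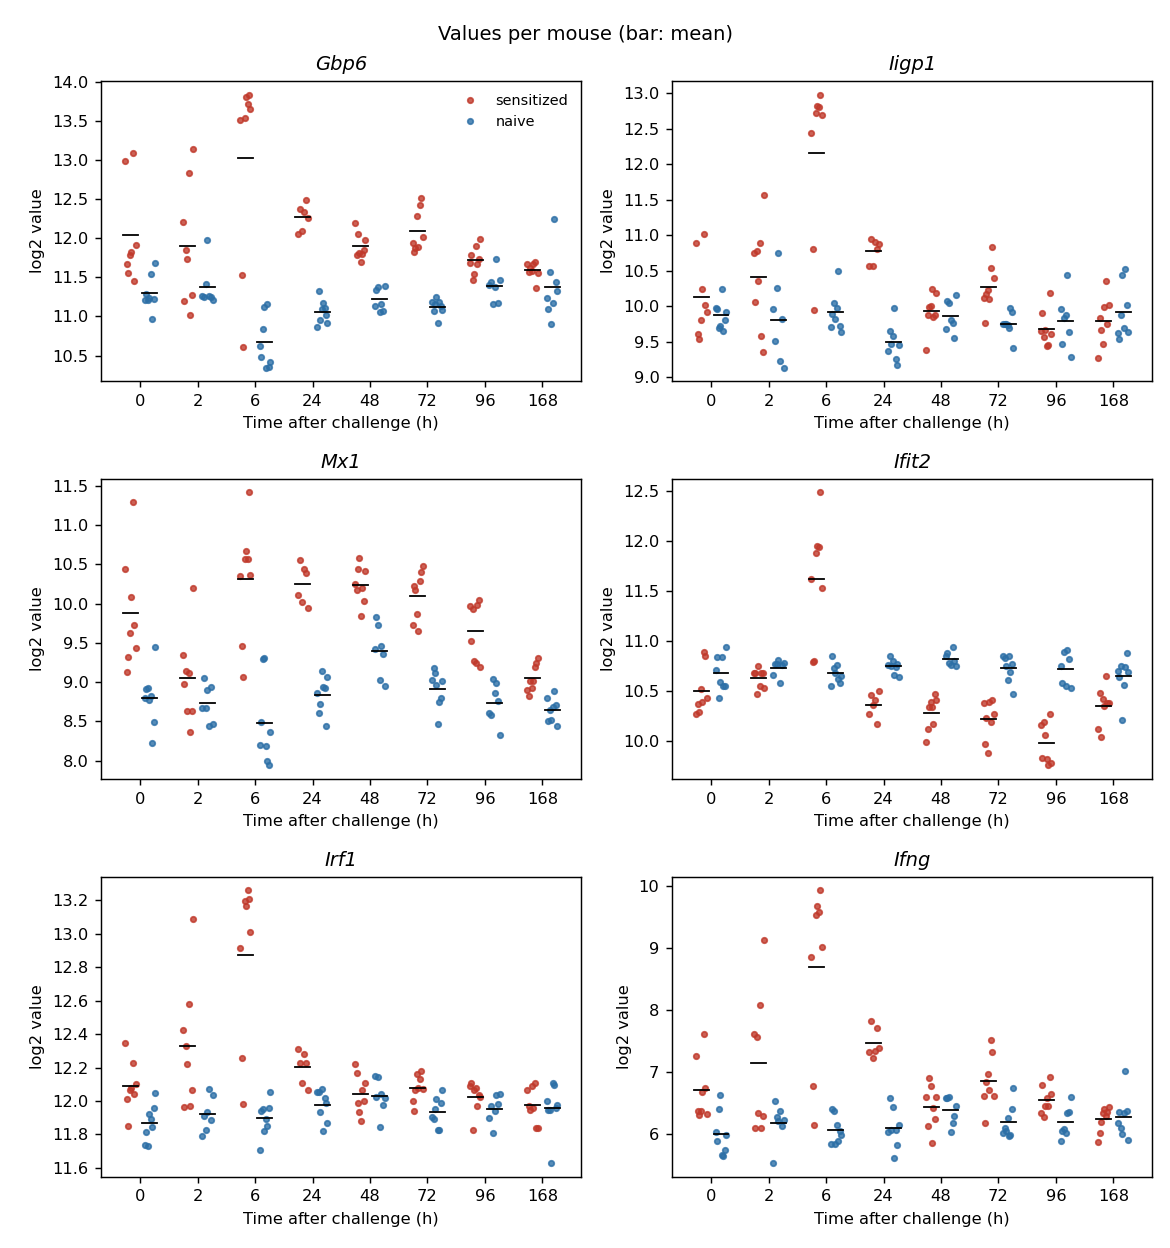
Log2 value of each mouse (points; short bars are group means) for Gbp6, Iigp1, Mx1, Ifit2, Irf1 and Ifng at each time after challenge (h), sensitized mice in red to the left of naive mice in blue. At 6 h, 2 sensitized mice sit low in every panel (Gbp6 10.61 and 11.52, against 13.50 to 13.83 in the other 6), and from 24 to 96 h sensitized Ifit2 lies below the naive mice.

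Across the 8 times the gamma-like median difference was 0.25, 0.32, 1.50, 0.52, 0.05, 0.37, -0.03 and 0.04 at 0, 2, 6, 24, 48, 72, 96 and 168 h. The type I-like median was 0.11, 0.32, 0.97, 0.29, -0.08, 0.28, -0.06 and 0.10 at the same times. Both family medians were thus largest at 6 h, and medians over all genes stayed between -0.04 and 0.01. The smaller medians were not stable in sign. The type I-like median at 0 h was -0.03 without sensitized mouse 6 and -0.10 with array weights. At 96 h the gamma-like median was 0.04 without naive mouse 5. At 168 h the gamma-like median was at or just below 0 without sensitized mouse 6 or naive mouse 4, and with array weights it was -0.13, while the type I-like median was -0.01 with array weights and 0.04 without sensitized mouse 6. These medians describe 8 and 6 genes, and the difference between the families was not tested.

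**Figure D3:**
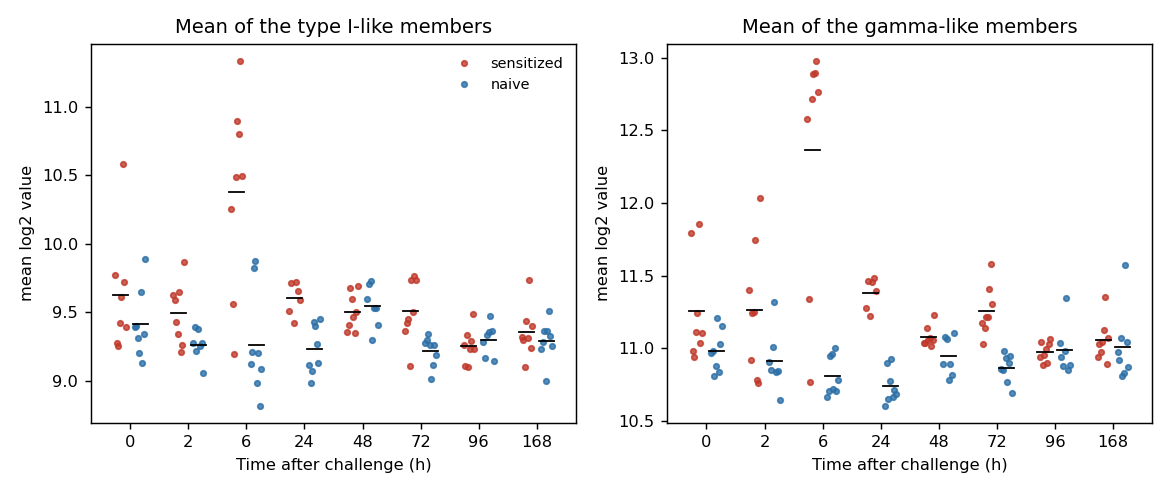
Mean log2 value of the 6 type I-like members (left) and the 8 gamma-like members (right) in each mouse (points; short bars are group means) by time after challenge (h), sensitized in red, naive in blue. At 6 h the sensitized gamma-like means form a cluster of 6 mice at 12.58 to 12.98 with 2 mice below it, and at 0 and 2 h a few sensitized mice already stand above the naive mice.

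At 0 h Mx1, Gbp6, Zbp1, Parp9 and Samhd1 were called higher, and 2 sensitized mice carried much of this. Mx1 read 9.13, 9.68 and 11.30 in sensitized lungs, against 8.23, 8.81 and 9.45 in naive lungs, a difference of 1.08 ± 0.20 (limma adjusted p = 2.44e-05). Gbp6 read 11.45, 11.80 and 13.09 in sensitized lungs, against 10.97, 11.23 and 11.68 in naive lungs, a difference of 0.74 ± 0.23 (limma adjusted p = 0.0104). Zbp1 read 8.82, 9.20 and 10.81 in sensitized lungs, against 8.20, 8.92 and 9.08 in naive lungs, a difference of 0.66 ± 0.23 (limma adjusted p = 0.0264). In each of the 3, 5 of 8 sensitized mice lay above all naive mice, and the highest values came from mice 1 and 6. For Gbp6 they read 12.99 and 13.09, while the other 6 did not exceed 11.91. The same mice had the most Ifng, 7.25 and 7.60, against 5.63 to 6.63 in naive lungs. Without mice 1 and 6 (chosen after seeing the data) only Mx1 was called, at 0.75 with a limma adjusted p of 0.0115. Gbp6 then had 0.40 (limma adjusted p = 0.298) and Zbp1 0.28 (0.492). As mice 1 and 6 held the highest values, leaving them out lowers these differences by construction. Without mouse 6 alone 1 member was called (Zbp1, Gbp6, Parp9 and Samhd1 were lost), without mouse 1 alone 2, without sensitized mouse 3 alone 8, and without naive mouse 6 alone 3. The call of Samhd1 held in 4 of 16 fits that each left out 1 mouse.

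At 2 h Irf1 was the only member called. It read 11.96, 12.27 and 13.09 in sensitized lungs, against 11.79, 11.91 and 12.07 in naive lungs, a difference of 0.41 ± 0.10 (limma adjusted p = 0.00613). Of the 8 sensitized mice 5 were above all naive mice, led by mouse 8. The 4 sensitized mice with the most Ifng, mice 8, 5, 1 and 3 at 9.13, 8.09, 7.61 and 7.56, were also the highest for Gbp6, at 13.14, 12.83, 12.21 and 11.85. They stood above all naive mice for Ifng (5.52 to 6.53). For Gbp6 the naive mice reached 11.98, so mouse 3 overlapped them. Without mouse 8 no member was called, and Irf1 had 0.30 (limma adjusted p = 0.0629). Without mice 1, 5 and 8 (chosen after seeing the data) the gamma-like median was 0.04 and the type I-like median 0.10. These mice had the highest Gbp6 values, so leaving them out lowers the gamma-like differences by construction. The 2 h call of Irf1 was also lost when the 2 h mice were fitted alone (limma adjusted p = 0.127). Leaving out sensitized mouse 2 or 6 gave 3 calls, sensitized mouse 7 gave 5 and naive mouse 4 gave 2.

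Between 6 and 24 h every member's difference became smaller, and the change itself passed limma's test in 25 of 33 members (all in the falling direction), against 6.33% of all genes. By role these were 8 of 8 gamma-like members, 2 of 6 type I-like members, 6 of 9 effectors, 3 of 4 factors, 3 of 3 RNA sensors and 3 of 3 of the Parp9 group. The gamma-like median change was -0.94 and the type I-like median change -0.67, against 0.02 over all genes. At 24 h 7 gamma-like members were still higher, with Gbp7 the exception, though Gbp3 (0.37 ± 0.15) passed in only 8 of the 14 fits that each left out 1 mouse. Ifit1 (0.46 ± 0.17) did not pass without sensitized mouse 4. Iigp1 read 10.57, 10.85 and 10.94 in the 6 sensitized lungs, against 9.18, 9.46 and 9.98 in naive lungs, with no overlap, and differed by 1.29 ± 0.25 (limma adjusted p = 8.24e-06). Zbp1 read 9.67, 10.16 and 10.67 in sensitized lungs, against 8.45, 8.77 and 9.19 in naive lungs, and differed by 1.38 ± 0.25 (limma adjusted p = 2.56e-06). All 6 sensitized mice exceeded the naive mice in both. Without the 7 arrays that carry squamous epithelium transcripts, 16 members had a changed difference in place of 25, and no share of all genes is given for that fit.

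Within the sensitized arm all 33 members changed over time (limma F test, 87.8% of all genes), and 32 of them had their highest mean at 6 h. The exception was Cmpk2, a mitochondrial nucleotide kinase encoded beside Rsad2, with its highest sensitized mean at 72 h. For the time of the highest mean no share of all genes is given. Within the naive arm 4 members changed over time (Mx1, Cmpk2, Ifi35 and Samhd1), against 38.4% of all genes. With array weights that naive count was 23, and no share of all genes is given for that fit. The arm-by-time interaction was called in all 33, against 62.5% of all genes.

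Later, from 48 to 96 h, members were called in both directions, at shares near or below those of all genes. Mx1 was called higher at 0, 6, 24, 48, 72 and 96 h, with differences of 1.40 ± 0.21 at 24 h, 0.84 ± 0.21 at 48 h, 1.19 ± 0.20 at 72 h and 0.91 ± 0.21 at 96 h. At 96 h it read 9.20, 9.72 and 10.04 in sensitized lungs, against 8.33, 8.76 and 9.04 in naive lungs. Sensitized and naive Mx1 values did not overlap at 24, 48, 72 or 96 h. Its 2 h difference, 0.32 ± 0.21 (limma adjusted p = 0.453), and its 168 h difference, 0.40 ± 0.20 (0.243), did not pass. At 168 h 7 of 8 sensitized mice still lay above every naive mouse.

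Gbp6 was the only gamma-like GTPase called at 48 h. At that time it read 11.69, 11.83 and 12.19 in sensitized lungs, against 11.05, 11.16 and 11.39 in naive lungs, a difference of 0.68 ± 0.23 (limma adjusted p = 0.0174). At 72 h it read 11.82, 11.98 and 12.51 in sensitized lungs, against 10.92, 11.15 and 11.24 in naive lungs, a difference of 0.97 ± 0.23. All 8 sensitized mice were above all naive mice at both times. At 72 h Zbp1 (0.87 ± 0.23), Irgm1 (0.45 ± 0.14), Gbp2 (0.38 ± 0.14), Ifit1 (0.37 ± 0.16), Igtp (0.37 ± 0.16) and Parp9 (0.30 ± 0.09) were higher as well. Of these, Ifit1 passed in 7 and Igtp in 6 of the 16 fits that each left out 1 mouse. Zbp1 read 9.25, 9.70 and 10.22 in sensitized lungs, against 8.62, 8.87 and 9.09 in naive lungs, with no overlap. By 96 h Gbp6 differed by 0.33 ± 0.23, which did not pass.

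Ifit2, another protein that binds viral RNA, moved the other way. It was higher at 6 h and then lower at 24, 48, 72 and 96 h. At 48 h it read 9.99, 10.35 and 10.48 in sensitized lungs, against 10.75, 10.80 and 10.94 in naive lungs, a difference of -0.54 ± 0.11 (limma adjusted p = 5.19e-05). At 96 h it read 9.76, 9.94 and 10.27 in sensitized lungs, against 10.53, 10.75 and 10.91 in naive lungs, a difference of -0.73 ± 0.11 (limma adjusted p = 5.34e-08). All sensitized mice lay below every naive mouse at 24, 48, 72 and 96 h. At 168 h the difference was -0.29 ± 0.11 (limma adjusted p = 0.0898), with 2 of 8 sensitized mice below the naive range. The smallest p of any member at 168 h was that of Ifi35, which read 12.87, 13.01 and 13.23 in sensitized lungs, against 12.67, 12.90 and 13.03 in naive lungs. With 3 of 8 sensitized mice above the naive range, its difference of 0.13 ± 0.04 did not pass (limma adjusted p = 0.056).

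Rsad2 fell at 96 h. It read 10.76, 11.22 and 11.45 in sensitized lungs, against 11.50, 11.71 and 12.14 in naive lungs, so that the groups did not overlap, and differed by -0.60 ± 0.17 (limma adjusted p = 0.00236). Trim30a (-0.33 ± 0.08), a TRIM protein that restrains NF-kappaB signalling, was also lower at 96 h. So were Cmpk2 (-0.28 ± 0.11), Ifih1 (-0.28 ± 0.07), Xaf1 (-0.27 ± 0.09), which promotes cell death, and Gbp7 (-0.23 ± 0.08). Xaf1 had been lower at 48 h, at -0.28 ± 0.09, and Ifih1 at 72 h, at -0.16 ± 0.06, a call that held in 8 of 16 fits that each left out 1 mouse. At 96 h Cmpk2 passed in 9 of 15 such fits, and Gbp7 did not pass without naive mouse 5.

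**Figure D4:**
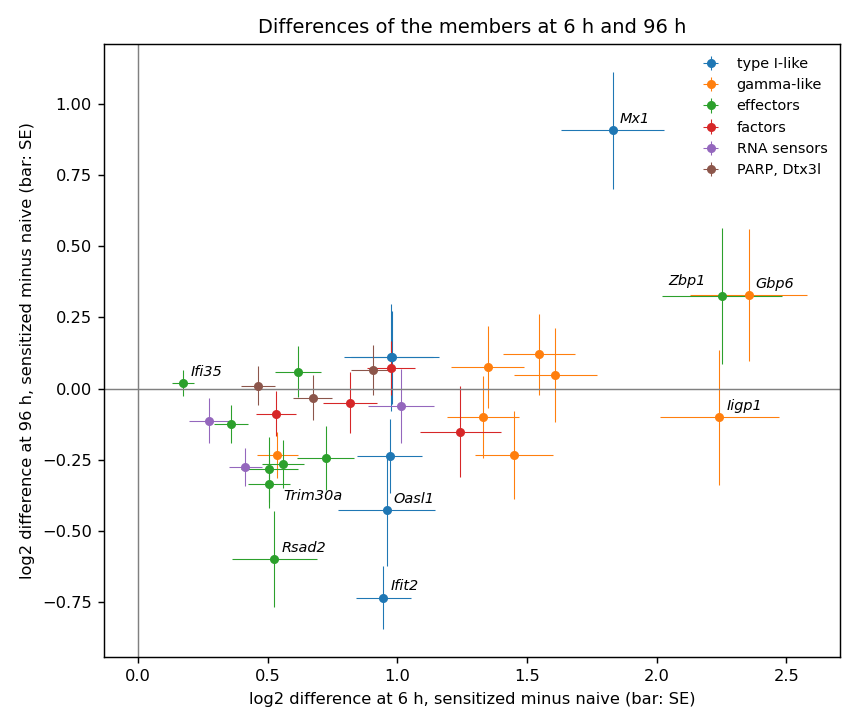
Log2 difference, sensitized minus naive, of each member at 6 h (horizontal axis) and at 96 h (vertical axis), with SE bars and colour by role. Every member lies right of 0 at 6 h, while at 96 h Mx1 (0.91) is the only member called higher and Ifit2 (-0.73) and Rsad2 (-0.60) lie lowest.

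In these whole-lung samples a change in the number of cells of a type and a change in RNA per cell cannot be told apart. At 6 h marker lists of several cell types moved with the members, while 24.6% of all genes were called higher and 33.2% lower. NK cell markers were higher in 8 of 10 genes (list mean 8.74 to 9.99 in sensitized lungs, against 8.43 to 8.81 in naive lungs). T cell markers were higher in 9 of 11 (9.01 to 10.24 in sensitized lungs, against 8.56 to 9.22 in naive lungs). Markers of plasmacytoid dendritic cells, a main source of type I interferon, were higher in 5 of 7 (9.13 to 10.06 in sensitized lungs, against 8.85 to 9.47 in naive lungs). For these 3 cell types no gene of the list was called lower. Monocyte and macrophage markers were higher in 5 of 7 (10.79 to 12.09 in sensitized lungs, against 10.53 to 11.32 in naive lungs). B cell markers were higher in 3 of 5 (10.12 to 10.89 in sensitized lungs, against 9.55 to 10.32 in naive lungs). Neutrophil markers were higher in 2 of 6, near the share of all genes (9.66 to 11.67 in sensitized lungs, against 9.31 to 12.09 in naive lungs). Lung epithelial and endothelial markers were lower in 8 of 11 and higher in 1, with list means of 13.20 to 13.50 in sensitized lungs, against 13.43 to 13.49 in naive lungs. The difference between the actin probe sets at the 3′ and 5′ ends, a measure of RNA quality, was 0.86 to 1.24 in sensitized lungs, against 1.15 to 1.30 in naive lungs. At 96 h 21.2% of all genes were called higher and 20.8% lower. Beside the 7 lower members, neutrophil markers were then lower in 4 of 6 (9.29 to 10.47 in sensitized lungs, against 9.81 to 10.60 in naive lungs). Lung epithelial and endothelial markers were lower in 7 of 11 at that time. Other lists moved up at 96 h, with monocyte and macrophage markers higher in 5 of 7 (10.86 to 11.29 in sensitized lungs, against 10.57 to 10.90 in naive lungs) and T cell markers higher in 5 of 11. NK cell markers were higher in 1 and lower in 2 of 10, and plasmacytoid dendritic cell markers higher in 1 and lower in 1 of 7. The actin difference was widest apart at 168 h, at 1.26 to 1.71 in sensitized lungs, against 0.80 to 1.45 in naive lungs. The part of these lists and of RNA quality in the members' differences was not tested.

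Of 19 listed interferon ligands 2 were measured, and Ifnb1 was not analysed here. Ifng read 6.13, 9.28 and 9.94 in sensitized lungs at 6 h, against 5.83, 6.01 and 6.39 in naive lungs, a difference of 2.63 ± 0.27 (limma adjusted p = 3.31e-14), with 7 of 8 above the naive range. Its difference was 0.71 at 0 h, 0.97 at 2 h, 1.38 at 24 h and 0.66 at 72 h, all called. It was 0.05 at 48 h and 0.37 at 96 h, neither called. Ifna5, a type I interferon, read 7.24, 7.56 and 7.81 in sensitized lungs at 6 h, against 7.30, 7.42 and 7.66 in naive lungs, a difference of 0.12 ± 0.07 that did not pass (limma adjusted p = 0.144). It was lower at 48 h, at -0.23 ± 0.08 (limma adjusted p = 0.012). At 96 h it read 7.21, 7.27 and 7.31 in sensitized lungs, against 7.40, 7.51 and 7.63 in naive lungs, a difference of -0.26 ± 0.08 (limma adjusted p = 0.00425). The 8 sensitized mice then lay below every naive mouse, and at the other 5 times it was not called. A single Ifna gene does not describe the type I ligands as a whole.

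For the lists below, 24.6% of all genes were called higher and 33.2% lower at 6 h. Of 6 interferon receptor genes at that time, Ifngr2 (0.61 ± 0.08) and Ifnar2 (0.17 ± 0.04) were higher. Ifngr1 (-0.10 ± 0.04) and Ifnlr1 (-0.19 ± 0.06) were lower, and Ifnar1 and Il10rb were not called. Of 17 kinases, adaptors and other factors 11 were higher and 2 lower. The largest was Sting1, the adaptor that relays cytosolic DNA, at 1.70 ± 0.17, followed by Myd88, the adaptor of Toll-like receptors, at 0.94 ± 0.11, Irf8 at 0.82 ± 0.09 and Cgas, the DNA sensor upstream of Sting1, at 0.77 ± 0.12. Mavs, the adaptor of the RNA sensors, was lower (-0.26 ± 0.04), as was the kinase Tyk2 (-0.14 ± 0.06). Among 9 feedback genes 8 were higher and 1 lower. Nlrc5, a regulator of class I antigen presentation, differed by 1.39 ± 0.14, the cytokine signalling inhibitors Socs3 and Cish by 1.38 ± 0.18 and 1.25 ± 0.18, and the phosphatase Ptpn2 by 0.79 ± 0.09. Pias1 was lower, at -0.21 ± 0.05. Of 7 genes known to drive gamma interferon 5 were higher and 1 lower. Tbx21, a lineage factor of cells that make gamma interferon, differed by 1.09 ± 0.14, Stat4 by 0.91 ± 0.10 and Il12rb1 by 0.43 ± 0.06, while Il18 differed by -0.99 ± 0.17.

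In 12 members more than 1 probe set could be compared, and all 16 further probe sets were higher at 6 h too. They did not always give the same size. Gbp7 had 0.54 with the probe set used and 1.06 with the other, and Parp14 had 0.67 and 1.16. Ddx58 had 0.28 with the probe set used and 0.46 and 0.43 with the others, which lie above the 0.41 of Ifih1. Ifi35 had 0.17 with the probe set used and 0.27 and 0.44 with the others. Ifit2 and Mx1 had a single probe set each. The 3 probe sets of Rsad2 gave -0.60, -0.55 and -0.31 at 96 h, whereas those of Ddx58 differed in sign at that time (-0.11, 0.14 and 0.11). Gbp and Irg genes have near-identical relatives, and the probe set used for Gbp2 is of a kind that can bind several of them, so its value may include theirs.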

How the data were processed

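The deposited values are log2 intensities per probe set from 123 arrays, 1 per mouse (62 sensitized, 61 naive), which the authors made with RMA, per the submitters' notes on processing, and they were used unchanged. Replicates are separate animals by the labels' animal numbers. The table held 25697 probe sets; 22478 named 1 gene and gave 13053 genes, each by its probe set with the highest mean. Array medians ran from 9.32 to 9.44. The number of arrays limits the precision.

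limma 3.58.1 (R 4.3.3) fitted 1 mean per group over all arrays (107 residual degrees of freedom), so each SE shares 1 spread per gene, with Benjamini-Hochberg adjustment over all genes within a contrast and a threshold of 0.05. The fit was tested on simulated data. Alternatives were the mean of all probe sets, a filter on dim genes, fitting only the groups compared, array weights, median centring, leaving out arrays with squamous or muscle transcripts, and leaving out each mouse.

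Per-mouse values are given for the 2 members of each role (3 for type I-like and gamma-like) with the largest difference at the time with most calls, and for the 3 largest called at other times (the 2 smallest p where none passed). Ifng, and for each pathway list up to 4 genes, were added by the same rule. Members and lists were chosen with earlier results of these data known. Genes named for other reasons were chosen after their values were seen. Promoter motifs were searched with Python 3.11.15.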

Additional observations from a re-analysis of the deposited data

Results flagged for a closer look

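Ifi35 in sensitized mice at 168 h had 1 mouse apart from the others: mouse 6 read 13.23, and the nearest mouse 13.04. Of 64 groups of named member values tested for 1 sample apart this was the 1 found, and chance alone gives about 1 in 20.

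The sensitized and naive arms followed different courses by limma's interaction test in 33 of 33 members, against 62.5% of all genes. Between 6 and 24 h the difference between the arms fell in 25 of 33 members by limma's test of that change, against 6.33% of all genes.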

How the results depend on the processing

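The 33 higher calls at 6 h held under every alternative tried, each left-out mouse included, and no named value changed sign. The small medians did. The type I-like median at 0 h was -0.099 with array weights, -0.065 without sensitized mice 1 and 6 and -0.029 without mouse 6. The gamma-like median was 0.044 at 96 h without naive mouse 5, and -0.13 at 168 h with array weights. Other counts moved. Fitting only the 2 groups compared gave 4 higher members at 48 h, 15 higher and 1 lower at 72 h, 2 higher and 11 lower at 96 h, and 1 higher at 168 h. Array weights gave 1 lower at 0 h, 4 higher at 2 h, 22 higher at 24 h, 4 higher at 48 h, 13 higher at 72 h, 1 lower at 168 h and 23 members changed over time in naive mice. Averaging all probe sets of a gene left 2 changed over time in naive mice. Without squamous arrays 2 were higher at 2 h, and 16 changed from 6 to 24 h. Median centring gave 2 higher at 2 h and 4 lower at 48 h. Among alternatives chosen after seeing the data, dropping the muscle arrays gave 5 higher at 2 h and 1 higher at 168 h. Dropping sensitized mice 1 and 6 gave 1 higher at 0 h. Dropping sensitized mice 1, 5 and 8 gave 0 higher at 2 h with a type I-like median of 0.0995. Those sensitized mice had high member values, so smaller differences without them follow by construction. Leaving out 1 mouse in turn gave 1 to 8 higher at 0 h, 0 to 5 higher at 2 h and 13 to 16 higher at 24 h. It gave 2 to 3 lower at 48 h, 6 to 9 higher and 1 to 2 lower at 72 h, and 5 to 8 lower at 96 h. The range at 168 h was 0 to 2 higher and 0 to 1 lower. At 72 h the lower count was 1 without any of sensitized mice 1, 2, 4 and 6 or naive mice 1, 3, 7 and 8. At 168 h 2 were higher without sensitized mouse 8 or naive mouse 6, and 1 without sensitized mouse 3 or 7 or naive mouse 5, while 1 was lower without naive mouse 4. Ifit2 at 168 h passed with array weights (-0.38). In all, 742 of the counts and medians were labelled the same as the reported value and 46 moved. That label allows some change. It includes the type I-like median at 0 h without sensitized mouse 6, at -0.029 against 0.105 in the main fit. Of the named values 754 kept their call, 11 no longer passed and 8 now passed. Except where fewer arrays or groups were fitted, the cause was not tested. No paired analysis was possible because replicate numbers follow accession order only. The values hold no detection calls, so signal over background is unknown, which bears most on dim genes such as Ifng and Oasl1 (both under 8 in every naive group's mean).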

Other observations

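A few naive mice carried high values of single families. At 6 h naive mice 3 and 4 had type I-like means of 9.82 and 9.87, while the other 6 naive mice had at most 9.21. Their gamma-like means, 10.95 and 10.96, lay inside the range of the other naive mice, and their Ifng read 6.37 and 5.83. Mx1 read 9.30 and 9.31 in those mice and Oas2 9.72 and 9.82. At 168 h naive mouse 6 had a gamma-like mean of 11.57, above the 11.35 of the highest sensitized mouse, with Gbp6 at 12.24 and Ifng at 7.02. Its type I-like mean was 9.51, below the 9.73 of the highest sensitized mouse.

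At 0 h sensitized mice 1 and 6 had close gamma-like means, 11.80 and 11.86, but type I-like means of 9.77 and 10.58.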
